A study of Homo sapiens with 18 samples.

Results

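The 10 genes described here encode amino acid transporters of the plasma membrane: SLC7A5, SLC3A2, SLC7A11, SLC7A1, SLC1A5, SLC1A4, SLC38A1, SLC38A2, SLC6A9 and SLC43A1. They were chosen by name out of the 26485 genes of the count table, with measured results of these libraries already known, so their number and direction in any comparison is no independent support. Which measurement guided the choice is not recorded. The thapsigargin responses, by which such genes are usually grouped, are therefore given as a description with no test. The differences between these responses are a description too, and nothing is read from their calls. The comparisons that are tested share libraries with these responses, so a choice on the responses could also shift their values. All 10 genes were among the 13096 that passed the filter of a mean normalized count of at least 10 over all libraries.

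Amino acids enter cells through membrane carriers. SLC7A5 (LAT1) is the light chain of a heterodimer with SLC3A2 (4F2 heavy chain, CD98), which exchanges intracellular glutamine for leucine and other large neutral amino acids, and leucine uptake feeds mTORC1 signalling. The same heavy chain pairs with SLC7A11 (xCT), the cystine and glutamate exchanger that supplies cysteine for glutathione. When the endoplasmic reticulum loses calcium, the kinase PERK phosphorylates eIF2alpha, and translation of ATF4 increases. ATF4, with C/EBP partners, acts at composite C/EBP-ATF response elements of genes for amino acid import and synthesis, many of these transporters among them.

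The series holds 18 mRNA libraries from the human pancreatic cancer cell line L3.6pl, in 6 groups of 3. Gemcitabine-resistant L3.6pl (GemR), a derivative maintained in 64 nM gemcitabine, received siSTIM1 or the control siRNA siCont for 48 h, and parental L3.6pl (Par) received siCont only. STIM1 is the calcium sensor of the endoplasmic reticulum that opens store-operated calcium channels. In each of these 3 states the last 3 h were with 500 nM thapsigargin, which blocks the SERCA calcium pump and empties the store, or with the DMSO vehicle. GemR is a single derivative, so resistance, exposure to the drug and any other difference between the lines cannot be told apart. The labels give a single siSTIM1 condition and none in parental cells, so loss of STIM1 and any other effect of this siRNA cannot be told apart. They do not say that replicates are separate cultures, so p-values measure only the spread between these libraries, and in bulk RNA fewer cells and less RNA per cell cannot be told apart.

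The libraries held 8922439 to 16519239 gene-assigned reads, recovered from the deposited normalized counts. STIM1 itself lay between 272 and 401 normalized counts in the 6 GemR siSTIM1 libraries, against 4976 to 6401 in the GemR siCont vehicle and 6079 to 6307 in the GemR siCont thapsigargin libraries, and between 421 and 481 in the Par libraries. All 6 epithelial markers looked at (KRT7, KRT8, KRT18, KRT19, EPCAM, CDH1) were above 0 in every library. The fibroblast marker DCN was at 0 in every library, and the 5 fibroblast markers summed to 1454 to 1732 and 1013 to 1161 in the siSTIM1 libraries with thapsigargin and vehicle, 1380.0 to 1523 and 1002 to 1237 in GemR siCont, and 2968 to 3177 and 1997 to 2242 in Par, nearly all of it COL1A1. Of 5 leukocyte markers only CD68 was above 0 in every library (sums of 74.2 to 176), and 3 endothelial markers summed to 114 to 282. The part of these levels in the results was not tested. Replicate 1 of GemR siCont with vehicle and replicate 1 of GemR siSTIM1 with thapsigargin stood farthest from their replicates: the SD of the log2 difference to them was 0.345 to 0.496, against 0.257 to 0.333 for the other pairs.

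SLC7A5 and SLC3A2, the 2 chains of the LAT1 transporter, had far lower RNA levels in GemR siSTIM1 cells than in GemR siCont cells. With vehicle, SLC7A5 had 7187, 7158 and 7316 normalized counts in the siSTIM1 libraries, against 38818, 55977 and 54439 in the siCont libraries. The siSTIM1 libraries lay within a narrow band, and the lowest siCont library, replicate 1, was still more than 5 times as high as any of them. The log2 fold change was -2.77 ± 0.10 (SE, limma, adjusted p = 3.37e-13), 6.80-fold lower with siSTIM1, and 7 of the 13096 genes had a more negative value. SLC3A2 had 6292, 6566 and 5907 normalized counts with siSTIM1, against 23832, 22956 and 20994 with siCont. Its groups were also far apart, with a log2 fold change of -1.85 ± 0.07 (adjusted p = 4.95e-13), 3.61-fold lower, and 31 genes had a more negative value. Among the 3474 genes that averaged 1000 normalized counts or more, STIM1 had the most negative fold change, SLC7A5 came 2nd and SLC3A2 4th, with FHL1 between them. SLC7A5 alone took 0.0585% of the gene-assigned reads with siSTIM1 (SD 0.000588, n = 3), against 0.381% (SD 0.0820, n = 3) with siCont.

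**Figure D1:**
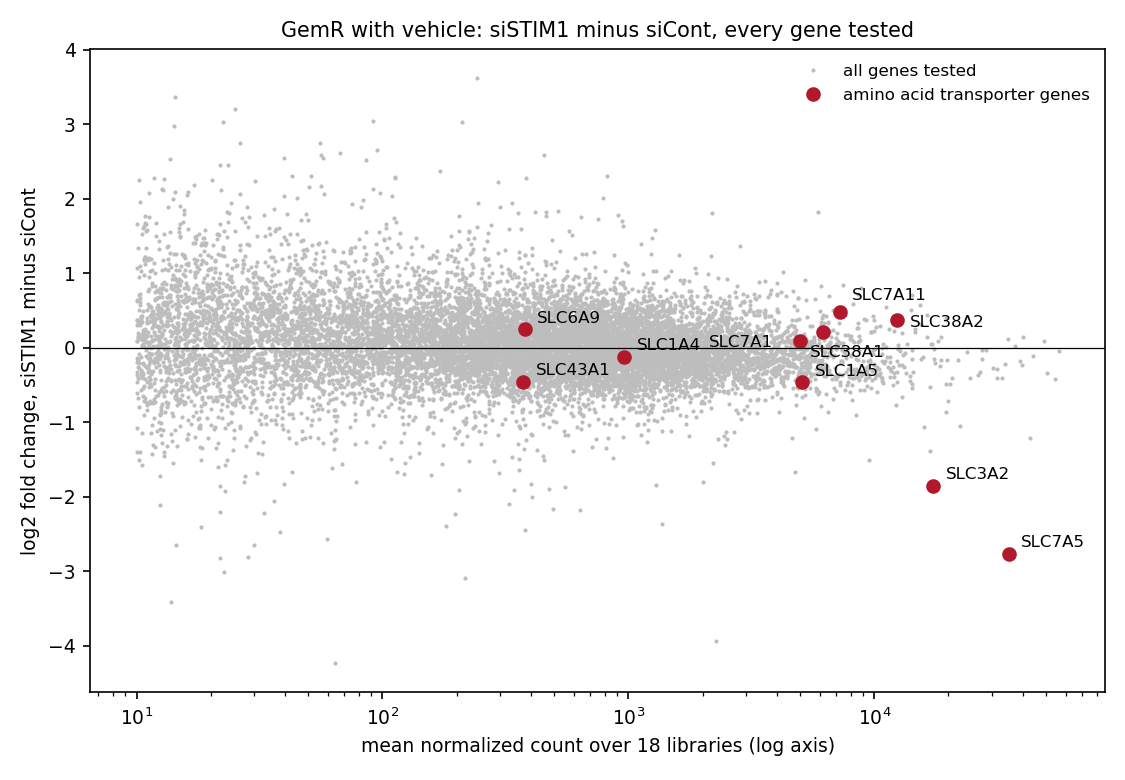
Log2 fold change of GemR siSTIM1 minus GemR siCont with vehicle (vertical axis, log2 of normalized count + 1) against the mean normalized count over 18 libraries (horizontal log axis), with each of the 13096 genes tested as a grey point and the 10 transporters in red. SLC7A5 at -2.77 and SLC3A2 at -1.85 lie below the other genes of similar level, and the other 8 transporters lie between -0.47 and 0.48.

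The difference was also present with thapsigargin. SLC7A5 had 12737, 12619 and 12636 normalized counts in siSTIM1 libraries, against 52549.9, 59958 and 54915 in siCont libraries, a log2 fold change of -2.14 ± 0.10 (adjusted p = 1.36e-11). SLC3A2 had 11963, 10259.6 and 10250.2 with siSTIM1, against 22528, 24060.2 and 22170.3 with siCont, a log2 fold change of -1.09 ± 0.07 (adjusted p = 7.29e-10). Neither pair of groups overlapped, and no alternative that was run ended either call in either treatment. Parental cells, whose STIM1 level was near that of GemR siSTIM1 cells, had 34617, 34905 and 40339 for SLC7A5 and 16739.8, 15788 and 16688 for SLC3A2 with vehicle. Every parental library was above every GemR siSTIM1 library for both genes. No parental cells received siSTIM1.

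Between the lines, both LAT1 genes were higher in GemR siCont cells with vehicle, by far less than the siRNAs differed. SLC3A2 was higher in GemR siCont than in Par libraries (log2 0.46 ± 0.07, adjusted p = 3.84e-05), and the groups did not overlap. For SLC7A5 the log2 fold change was 0.43 ± 0.10 (adjusted p = 0.00264), but GemR siCont replicate 1 fell inside the parental range, and the adjusted p was 0.0734 after quantile normalization and 0.0610 with only the compared groups in the fit. With thapsigargin, SLC7A5 had a log2 fold change of 0.18 ± 0.10 (95% interval -0.03 to 0.40, adjusted p = 0.144), with every GemR siCont library above every Par library. SLC3A2 had -0.12 ± 0.07 (95% interval -0.27 to 0.03, adjusted p = 0.172), with overlapping groups. With only the compared groups in the fit both of these passed the threshold, SLC7A5 at an adjusted p of 0.000771 and SLC3A2 at 0.0114, and SLC3A2 also passed after quantile normalization, at -0.16 (adjusted p = 0.0415).

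Per kilobase of exon, SLC7A5 exceeded SLC3A2 in every library, by a ratio that differed between the siRNAs. The length used is the union of all annotated exons, which can exceed that of the transcripts present. Which of the 2 genes is higher depends on this length and was not settled here. A fixed length cancels when the ratio is compared between groups. The ratio of SLC7A5 to SLC3A2 in normalized counts per kb was 1.26 ± 0.08 (SD, n = 3) in GemR siSTIM1 with vehicle, against 2.42 ± 0.57 in GemR siCont with vehicle. With thapsigargin it was 1.28 ± 0.11 in siSTIM1 and 2.66 ± 0.10 in siCont, and in parental cells 2.15 ± 0.06 with thapsigargin and 2.44 ± 0.19 with vehicle. All 6 siSTIM1 libraries had a ratio of at most 1.35, and all 12 siCont libraries had at least 1.78, the lowest being GemR siCont vehicle replicate 1. Both chains were lower with siSTIM1, the light chain by more.

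**Figure D2:**
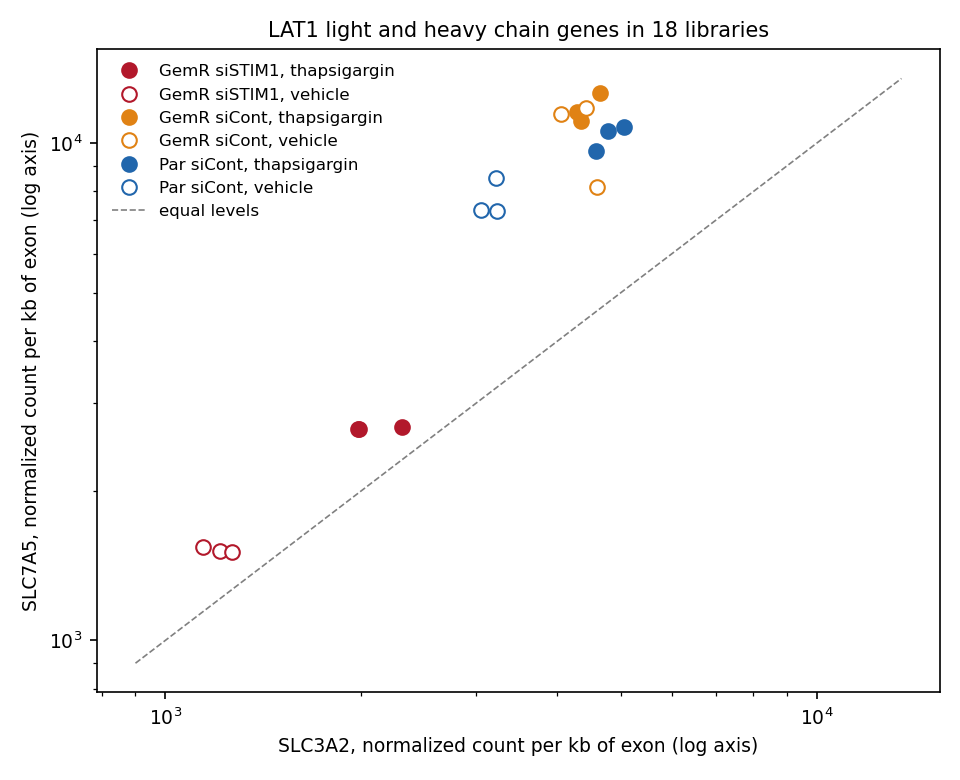
Normalized counts per kb of exon of SLC7A5 (vertical log axis) against SLC3A2 (horizontal log axis), 1 point per library, filled for thapsigargin and open for vehicle, with the dashed line at equal levels. The 6 GemR siSTIM1 libraries lie apart at low levels of both genes and nearer the line, with SLC7A5 to SLC3A2 ratios of 1.16 to 1.35. Lengths are unions of all annotated exons, and the position of the points relative to the line depends on them.

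SLC7A11, which uses the same heavy chain, did not follow SLC3A2. With vehicle it had 6903, 5668 and 6413 normalized counts in GemR siSTIM1 libraries, against 3657, 4823 and 5282 in GemR siCont libraries, a log2 fold change of 0.48 ± 0.11 (adjusted p = 0.0027). With thapsigargin it had 7514, 9937 and 9625, against 5092, 5187 and 5628, a log2 fold change of 0.76 ± 0.11 (adjusted p = 3.36e-05). All siSTIM1 libraries were above all siCont libraries in both treatments. In parental cells it had 14194, 13196 and 13732 with thapsigargin, against 4267, 4293 and 4538 with vehicle, a log2 difference of 1.65 ± 0.11. GemR siCont cells showed only 0.22 ± 0.11 for the same contrast, with overlapping groups, so that under thapsigargin SLC7A11 was 2.59-fold lower in GemR siCont than in Par (log2 -1.37 ± 0.11, adjusted p = 1.05e-08). With vehicle the lines differed by 0.05 ± 0.11 (95% interval -0.18 to 0.29), a difference that became 0.21 (adjusted p = 0.0087) without the 2 libraries that stood farthest from their replicates.

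The thapsigargin and vehicle libraries of parental cells were set side by side for the 10 genes. Their log2 differences, thapsigargin minus vehicle, ran from 0.42 ± 0.10 for SLC7A5 to 2.97 ± 0.09 for SLC38A2. The median was 1.29, against -0.02 over all genes tested. In GemR siSTIM1 cells the differences ran from 0.48 ± 0.10 for SLC38A1 to 1.89 ± 0.10 for SLC1A4, with a median of 0.80, against -0.01 over all genes. In GemR siCont cells SLC7A5, SLC3A2 and SLC7A11 overlapped between treatments. The median of the 10 genes there was 0.43, against -0.03 over all genes. SLC7A5 there had a log2 difference of 0.18 ± 0.10 and SLC3A2 of 0.02 ± 0.07. SLC3A2 in GemR siCont was the only response of the 10 genes that turned its direction: it was -0.24 after quantile normalization, -0.02 with median-centred libraries, -0.03 without GemR siCont vehicle replicate 3 and -0.01 without GemR siCont thapsigargin replicate 2. SLC7A5 in Par stood at 0.17 after quantile normalization. Over all genes tested, limma called 20.5% higher and 19.7% lower in Par at an adjusted p of 0.05. The shares were 17.9% and 15.8% in GemR siCont, and 12.5% and 11.9% in GemR siSTIM1. No such count is given for the 10 genes, which may have been selected on these values.

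**Figure D3:**
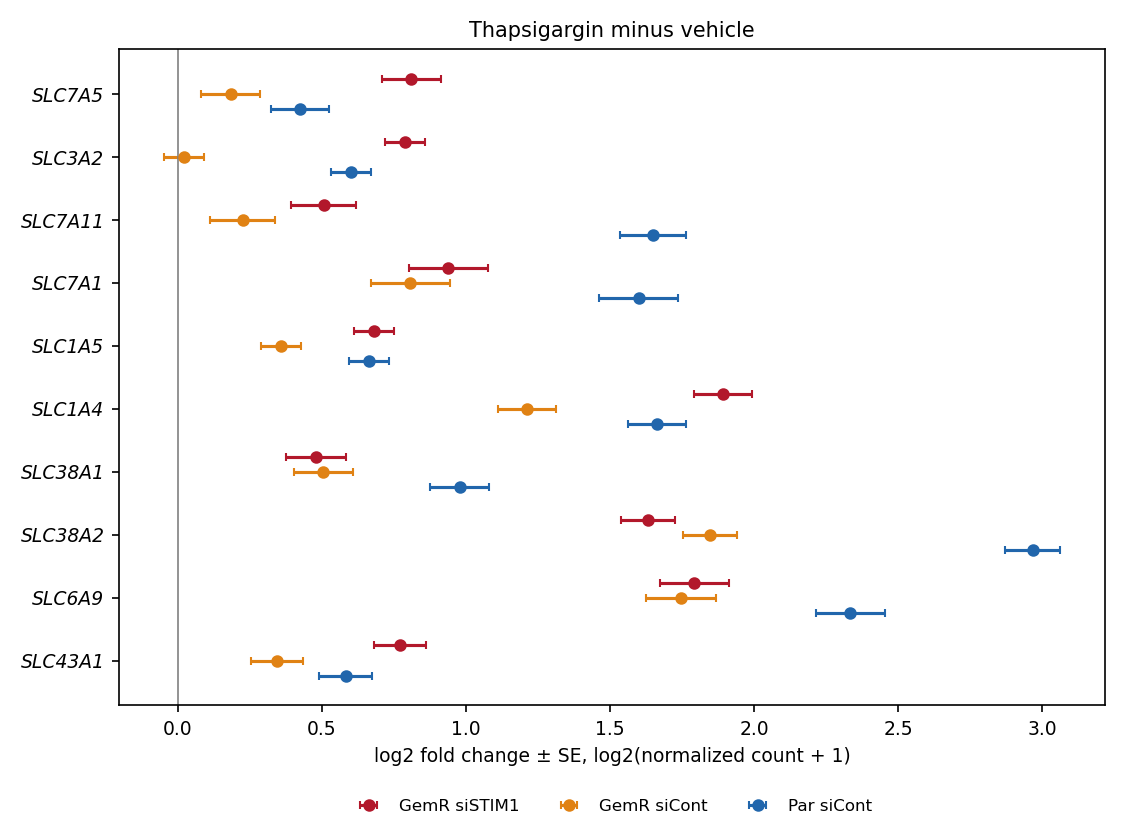
Log2 fold change ± SE of thapsigargin minus vehicle (horizontal axis, log2 of normalized count + 1) for each transporter gene in GemR siSTIM1, GemR siCont and Par siCont cells. SLC7A5, SLC3A2 and SLC7A11 sit near 0 in GemR siCont cells, from 0.02 to 0.22, and SLC38A2 is highest in Par at 2.97.

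Windows from 250 bases before to 50 bases after the annotated starts were taken from RefSeq (GRCh38.p14) for 9 of the 10 genes, 16 windows in all, and SLC7A11 had no entry. They are shown because the genes that were higher with thapsigargin belong to a group in which ATF4 is known to act through such elements. The letters TGATGNAAN, the C/EBP-ATF response element, were searched on both strands. They occurred in 5 of the 16 windows, in as many genes, and in 3.61% of the 35116 windows of the same length over the genome. In the 250 upstream bases alone, the first window searched, they occurred in 1 of the 16 windows, of SLC1A5, and in 3.13% of all windows. The longer window was added after these counts were seen. Each match is printed 5' to 3' on the strand of the gene, with the matched letters in capitals, and is a description and not a shown site of binding.

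SLC1A5 (chr19:46784893-46784921): aggaagtggcTGATGCAAGctgtccaggg
SLC1A4 (chr2:64989381-64989409): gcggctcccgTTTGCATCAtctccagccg
SLC38A1 (chr12:46266502-46266530): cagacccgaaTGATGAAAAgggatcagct
SLC7A1 (chr13:29595663-29595691): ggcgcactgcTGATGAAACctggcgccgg
SLC3A2 (chr11:62881725-62881748): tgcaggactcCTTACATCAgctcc

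The SLC1A5 match lay 97 to 89 bases before a start, the SLC1A4 and SLC38A1 matches spanned one, and the SLC7A1 and SLC3A2 matches lay 8 to 16 and 37 to 45 bases into the transcript. SLC7A5, SLC38A2, SLC6A9 and SLC43A1 had no match in these windows. The antioxidant response element TGACNNNGC, to which NRF2 binds, was found in 4 of the 16 windows and in 13.4% of all windows. These 4 belonged to SLC7A5, SLC3A2, SLC7A1 and SLC1A5. In the 250 upstream bases it was in 3 of the 16 windows, without that of SLC7A5, and in 10.9% of all windows. The LAT1 genes carried it as shown here, in capitals.

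SLC7A5 (chr16:87869491-87869519): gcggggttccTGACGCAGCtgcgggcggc
SLC3A2 (chr11:62881652-62881680): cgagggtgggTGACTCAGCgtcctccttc

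CCAAT boxes were in 4 of the 16 windows (of SLC3A2, SLC7A1, SLC1A5 and SLC1A4) and in 34.6% of all windows of 300 bases. For the 250 upstream bases they were in 4 of the 16 and in 32.0% of all windows. The cyclic AMP response element TGACGTCA was in none of them, and in 1.85% and 1.65% of all windows.

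SLC7A1 (CAT1) takes up arginine and lysine. In parental cells it had 8600.2, 8336 and 8406 normalized counts with thapsigargin, against 2469, 2899 and 3022 with vehicle, a log2 difference of 1.60 ± 0.14. GemR siCont cells had 5459, 5489 and 5761, against 2284, 3705 and 3804, a log2 difference of 0.81 ± 0.14. Vehicle replicate 1 of GemR siCont was low for this gene as for SLC7A5. GemR siSTIM1 cells had a log2 difference of 0.94 ± 0.14, and siSTIM1 and siCont overlapped in both treatments. With thapsigargin the siSTIM1 against siCont fold change was 0.22 ± 0.14 (95% interval -0.06 to 0.51), which passed with only the compared groups in the fit (adjusted p = 0.0449) and, at 0.31 (adjusted p = 0.000397), without the 2 libraries that stood farthest from their replicates. With vehicle it was 0.09 ± 0.14 (95% interval -0.20 to 0.37), a value that was -0.15 without GemR siCont vehicle replicate 1. GemR siCont was lower than Par with thapsigargin (log2 -0.60 ± 0.14, adjusted p = 0.00123), whereas with vehicle the lines overlapped (log2 0.19 ± 0.14, 95% interval -0.09 to 0.48, adjusted p = 0.284). Without GemR siCont vehicle replicate 1 the vehicle value was 0.43 (adjusted p = 0.000247).

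SLC1A5 (ASCT2) is a sodium-dependent exchanger of glutamine and other neutral amino acids, and SLC1A4 (ASCT1) is its relative for alanine, serine and cysteine. Both were lower in GemR siCont than in Par. With vehicle, SLC1A5 had 3567, 3764 and 3379 normalized counts in GemR siCont, against 5627, 6033 and 6408 in Par, a log2 fold change of -0.75 ± 0.07 (adjusted p = 7.06e-08). SLC1A4 had 286, 400.2 and 357 in GemR siCont, against 679, 767 and 790.0 in Par, a log2 fold change of -1.11 ± 0.10 (adjusted p = 6.05e-08). With thapsigargin the fold changes were -1.06 ± 0.07 (adjusted p = 3.65e-10) for SLC1A5 and -1.56 ± 0.10 (adjusted p = 3.22e-10) for SLC1A4, 2.09-fold and 2.95-fold lower, and neither gene overlapped between the lines in either treatment.

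The comparison of siSTIM1 with siCont separated this pair. SLC1A5 was lower with siSTIM1 and vehicle, 2469, 2724 and 2558 against 3567, 3764 and 3379 with siCont (log2 -0.47 ± 0.07, adjusted p = 3.61e-05), and with thapsigargin the groups overlapped (log2 -0.14 ± 0.07, 95% interval -0.29 to 0.00). SLC1A4 overlapped with vehicle (log2 -0.12 ± 0.10, 95% interval -0.33 to 0.09), and with thapsigargin it had 1183, 1167 and 1190.2 in siSTIM1, against 839.5, 810.3 and 750.0 in siCont (log2 0.56 ± 0.10, adjusted p = 0.000206). For SLC1A4 the vehicle value became -0.25 (adjusted p = 0.0239) without GemR siCont vehicle replicate 1, and for SLC1A5 the thapsigargin value became -0.20 (adjusted p = 0.0303) without GemR siSTIM1 thapsigargin replicate 1.

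SLC38A2 (SNAT2) and SLC38A1 (SNAT1) carry small neutral amino acids such as glutamine and alanine into the cell together with sodium, and SNAT2 is known to be induced when amino acids are short. SLC38A2 showed the largest thapsigargin difference of the 10 genes in Par, 24341, 22104 and 21980.3 normalized counts with thapsigargin, against 2869, 2834 and 3035 with vehicle, 7.82-fold higher. In GemR siSTIM1 it had 16900.1, 20545 and 21235, against 6661, 6038 and 6140.4, and in GemR siCont 17150.0, 17032 and 18467, against 4128, 5024 and 5568, so that in GemR siCont the vehicle level was higher and the thapsigargin level lower than in Par. The line fold changes were 0.74 ± 0.09 (adjusted p = 4.44e-06) with vehicle and -0.38 ± 0.09 (adjusted p = 0.0028) with thapsigargin, and the groups did not overlap in either. The line difference of SLC38A2 passed the threshold in opposite directions in the 2 treatments, as that of SLC3A2 did only under the alternatives given above. With siSTIM1 it was higher than with siCont in vehicle (log2 0.37 ± 0.09, adjusted p = 0.00473), and with thapsigargin the groups overlapped (log2 0.15 ± 0.09, 95% interval -0.05 to 0.35, and 0.36 with an adjusted p of 0.0142 after quantile normalization).

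SLC38A1 showed a smaller range. Its 6 group means lay between 4464 ± 730.5 in GemR siCont with vehicle and 9272 ± 359.9 in Par with thapsigargin (SD, n = 3). GemR siCont was lower than Par with thapsigargin (log2 -0.56 ± 0.10, adjusted p = 0.000175) and overlapped with vehicle (log2 -0.09 ± 0.10, 95% interval -0.30 to 0.13, and 0.05 without GemR siCont vehicle replicate 1). Between siSTIM1 and siCont it overlapped in both treatments, with log2 fold changes of 0.18 ± 0.10 with thapsigargin and 0.20 ± 0.10 with vehicle, which became 0.30 (adjusted p = 0.0238) without GemR siSTIM1 thapsigargin replicate 1 and 0.31 (adjusted p = 0.0197) without GemR siCont vehicle replicate 3. The vehicle value was 0.32 (adjusted p = 0.0295) after quantile normalization. Without the first of these libraries, SLC38A2 with thapsigargin was at 0.25 (adjusted p = 0.0418).

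SLC6A9 (GLYT1), the sodium- and chloride-dependent glycine transporter, and SLC43A1 (LAT3), a facilitative carrier of leucine and other large neutral amino acids, had the lowest counts per kb of the 10 genes together with SLC1A4. SLC6A9 had 1011, 963 and 1014 normalized counts with thapsigargin in Par, against 185, 172 and 239 with vehicle. In GemR siCont it had 372, 353 and 393 with thapsigargin, against 94.6, 122 and 116 with vehicle, below the parental level of the same treatment in every library. The line fold changes were -1.42 ± 0.12 (adjusted p = 1.42e-08) with thapsigargin and -0.83 ± 0.12 (adjusted p = 2.1e-05) with vehicle. Between siSTIM1 and siCont it stood at 0.29 ± 0.12 with thapsigargin (adjusted p = 0.063, groups apart) and 0.25 ± 0.12 with vehicle (adjusted p = 0.105, groups overlapping). The thapsigargin value passed after quantile normalization (adjusted p = 0.0349), with median-centred libraries (0.0417), with only the compared groups in the fit (0.0204) and by edgeR (0.0300). SLC43A1 was lower in GemR siCont than in Par without overlap, by -1.15 ± 0.09 (adjusted p = 5.02e-09) with thapsigargin and -0.91 ± 0.09 (adjusted p = 1.93e-07) with vehicle on the log2 scale. It was lower with siSTIM1 than with siCont in vehicle, 174, 195 and 176 against 245, 245 and 258 (log2 -0.46 ± 0.09, adjusted p = 0.000636), and overlapped with thapsigargin (log2 -0.03 ± 0.09, 95% interval -0.22 to 0.16).

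**Figure D4:**
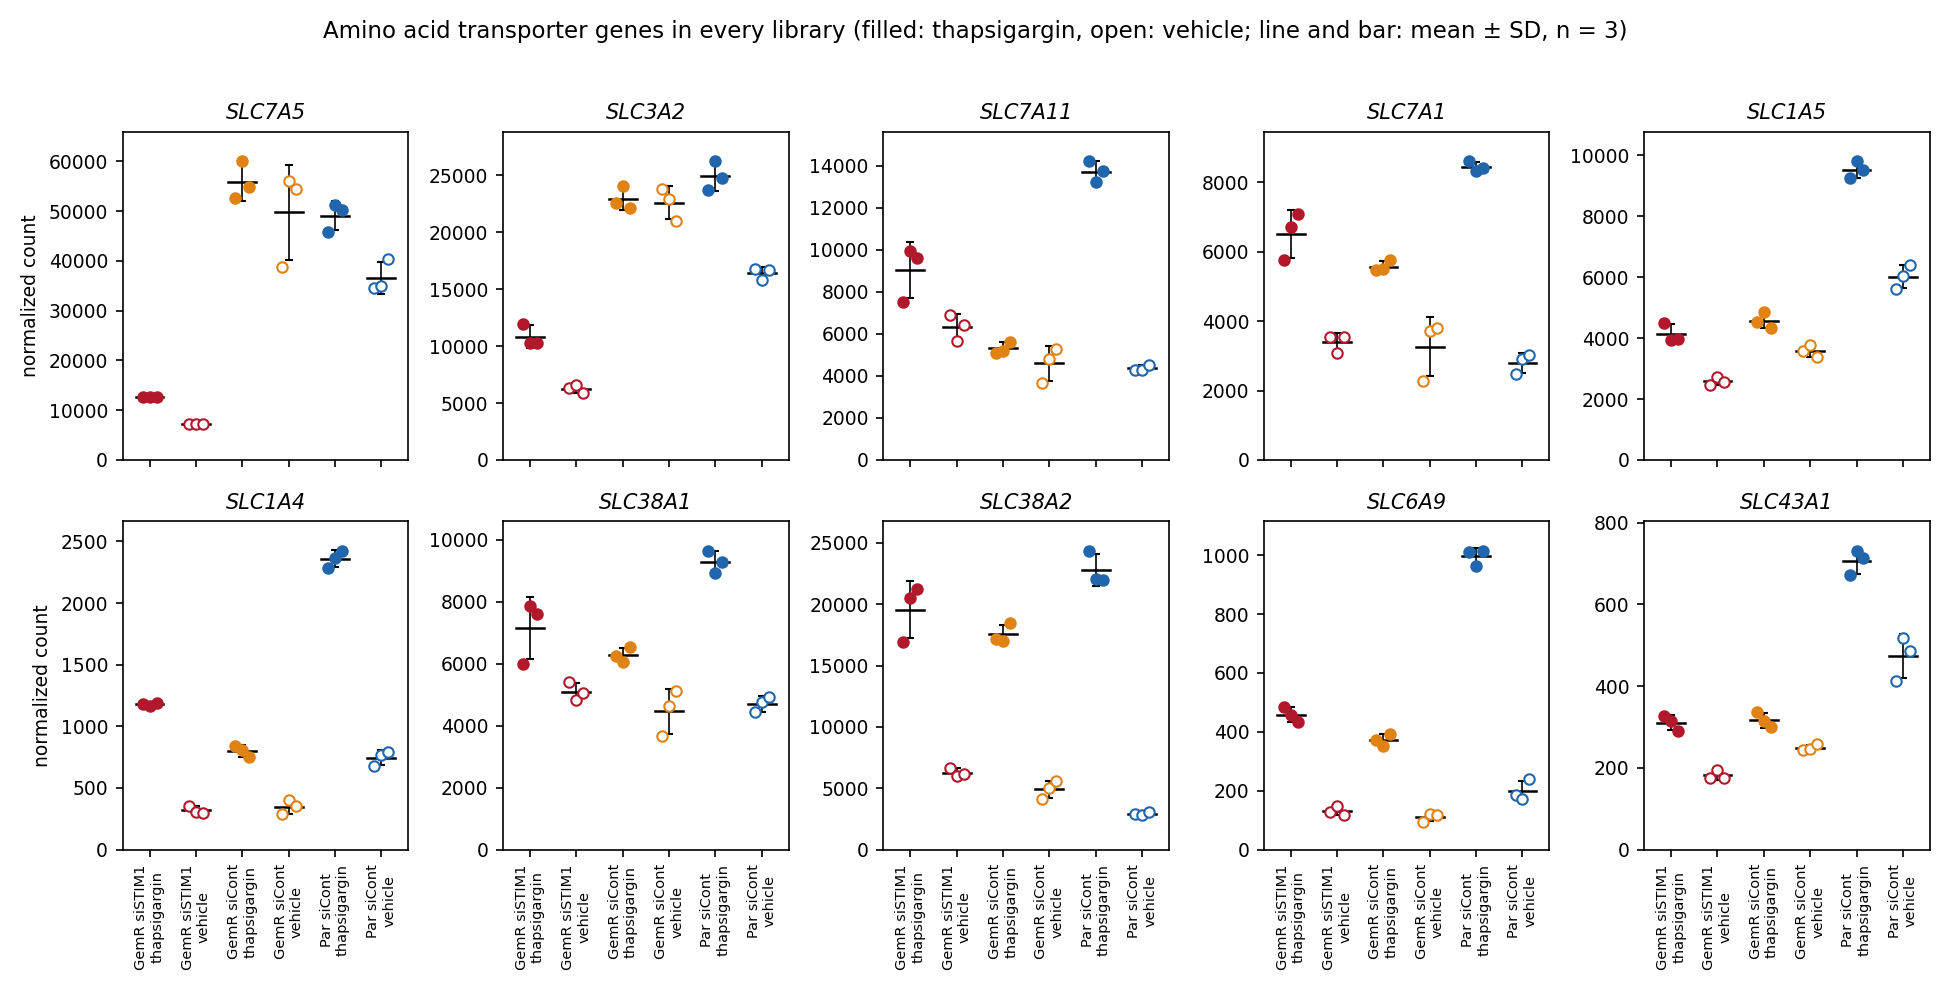
Normalized count (vertical axis, linear from 0, a separate scale per gene) of each transporter in each of the 18 libraries, by group, filled for thapsigargin and open for vehicle, with black lines and bars for the mean ± SD (n = 3). SLC7A5 and SLC3A2 are low in both GemR siSTIM1 groups, at most 12737 and 11963, and each of the other 8 genes is highest in Par with thapsigargin.

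Counted over the 10 genes, siSTIM1 against siCont in GemR gave 2 higher (SLC7A11, SLC38A2) and 4 lower (SLC7A5, SLC3A2, SLC1A5, SLC43A1) with vehicle, where 20.9% of all genes tested were called higher and 21.1% lower. With thapsigargin it gave 2 higher (SLC7A11, SLC1A4) and 2 lower (SLC7A5, SLC3A2), beside 17.7% and 18.9% of all genes. The medians over the 10 genes were 0.16 with thapsigargin and -0.02 with vehicle, beside -0.01 and 0.00 over all genes, so the 2 LAT1 genes were far from their own group. Without GemR siSTIM1 thapsigargin replicate 1 the count of 4 with thapsigargin was 7, through SLC1A5, SLC38A1 and SLC38A2.

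GemR siCont against Par gave 3 higher (SLC7A5, SLC3A2, SLC38A2) and 4 lower (SLC1A5, SLC1A4, SLC6A9, SLC43A1) with vehicle, beside 18.1% higher and 20.1% lower of all genes. With thapsigargin 8 were lower, all but SLC7A5 and SLC3A2, beside 23.2% higher and 25.0% lower of all genes. None was higher in the main limma test, by edgeR or at an unadjusted p under 0.05 in the main test. With only the compared groups in the limma fit, SLC7A5 was called higher (adjusted p = 0.000771) and SLC3A2 lower (adjusted p = 0.0114). The medians over the 10 genes were -0.83 with thapsigargin and -0.02 with vehicle, beside 0.00 over all genes in both. The Par libraries with thapsigargin also enter the thapsigargin response, for which the genes may have been chosen. A choice of genes high there would favour lower values in GemR siCont. The p-values and the count of 8 with thapsigargin are therefore no independent support.

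**Figure D5:**
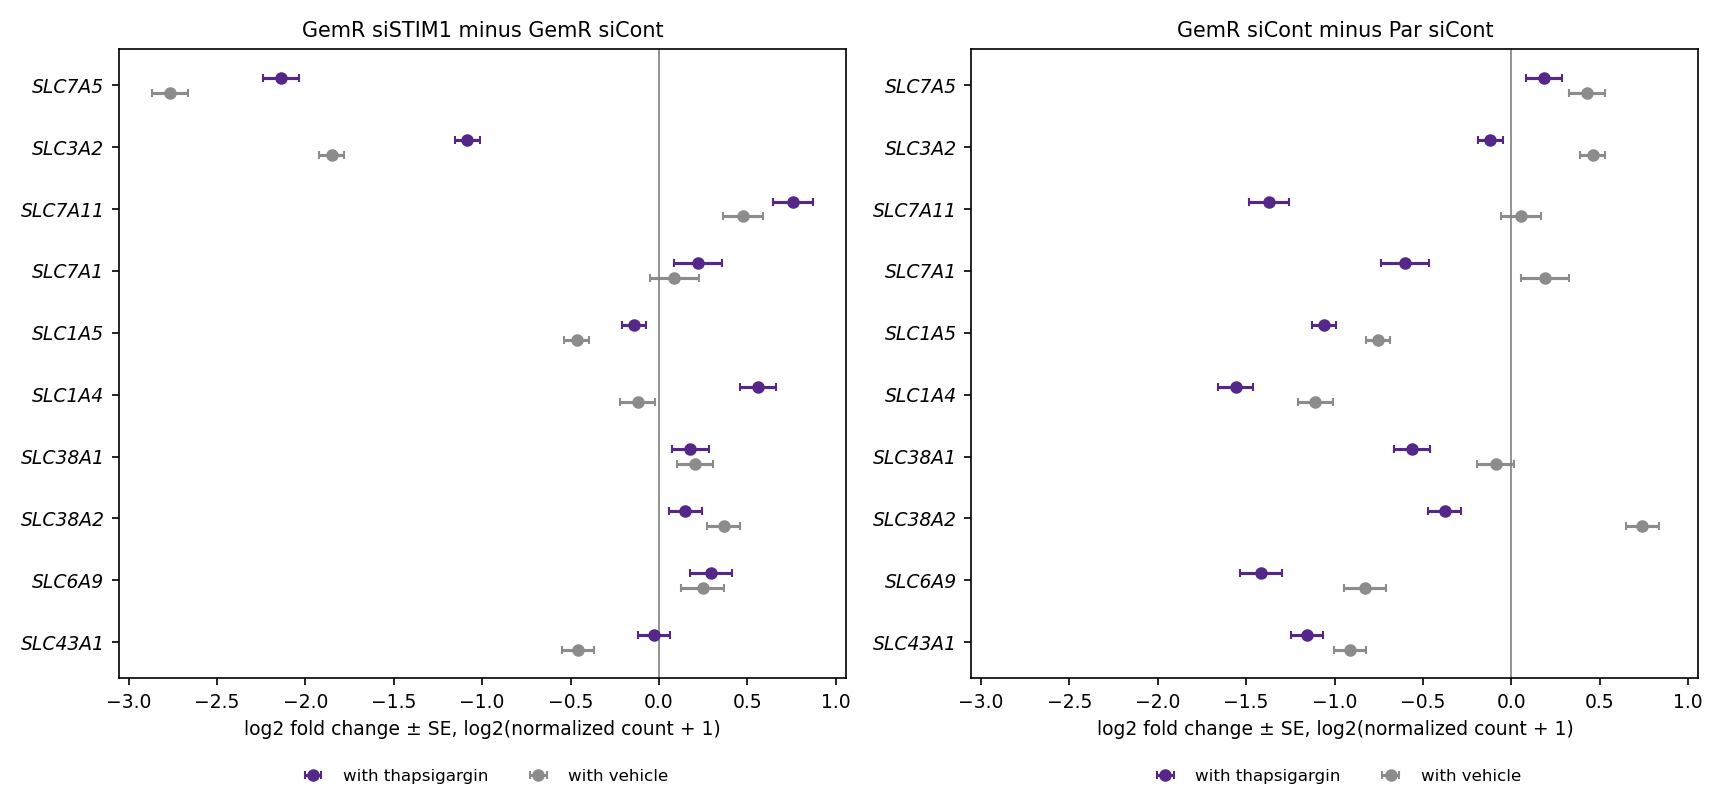
Log2 fold change ± SE (horizontal axes, log2 of normalized count + 1) of each transporter for GemR siSTIM1 minus GemR siCont (left) and GemR siCont minus Par siCont (right), with thapsigargin in purple and vehicle in grey. On the left SLC7A5 and SLC3A2 stand at -2.77 to -1.09, and on the right 8 genes lie at -0.38 or lower with thapsigargin.

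The thapsigargin responses were also set side by side between the states, as a description, because the genes may have been chosen for a strong response. The response of SLC7A11 was smaller in GemR siCont than in Par by the most, with a difference of -1.43 ± 0.16 on the log2 scale, followed by SLC38A2 at -1.12 ± 0.13. SLC7A1 stood at -0.79 ± 0.19, SLC6A9 at -0.59 ± 0.17, SLC3A2 at -0.58 ± 0.10, SLC38A1 at -0.47 ± 0.15, SLC1A4 at -0.45 ± 0.14 and SLC1A5 at -0.31 ± 0.10. SLC7A5 had -0.24 ± 0.14 (95% interval -0.54 to 0.06) and SLC43A1 -0.24 ± 0.13 (95% interval -0.51 to 0.03), so all 10 estimates were below 0. Over all genes tested, limma called 7.66% of the responses smaller and 7.14% larger in GemR siCont at an adjusted p of 0.05. The count for the 10 genes is given only to show how it depends on the processing, and nothing is read from it. Over 24 alternatives SLC6A9 ran from -0.73 to -0.49, SLC38A1 from -0.61 to -0.37, SLC1A4 from -0.59 to -0.34 and SLC1A5 from -0.35 to -0.22. SLC43A1 ran from -0.31 to -0.15. SLC7A5 ran from -0.41, the value without GemR siCont vehicle replicate 1, to -0.15.

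Between GemR siSTIM1 and GemR siCont, the response was larger with siSTIM1 by 0.77 ± 0.10 for SLC3A2, 0.68 ± 0.14 for SLC1A4 and 0.63 ± 0.14 for SLC7A5. The other 7 genes lay between -0.22 ± 0.13 for SLC38A2 and 0.43 ± 0.13 for SLC43A1. The LAT1 genes had a log2 response of 0.81 ± 0.10 for SLC7A5 and 0.79 ± 0.07 for SLC3A2 in siSTIM1 cells from a far lower vehicle level, and their thapsigargin level stayed below the vehicle level of siCont cells in every library. In the main limma test SLC3A2, SLC1A4 and SLC7A5 were past an adjusted p of 0.05, beside 1.50% larger and 2.90% smaller over all genes. None of the transporters was past it downwards by limma, by edgeR or at an unadjusted p under 0.05. SLC3A2 and SLC1A4 stayed past it in all 24 alternatives. SLC7A5 did not after quantile normalization, with only the compared groups in the fit, or without GemR siCont thapsigargin replicate 1. SLC7A11, SLC7A1, SLC1A5 and SLC43A1 came past it under some alternatives. The genes may have been chosen on the responses, so again nothing is read from the count. Over 24 alternatives SLC3A2 ran from 0.65 to 0.89, SLC1A4 from 0.57 to 0.82 and SLC7A5 from 0.53 to 0.80. SLC43A1 ran from 0.39 to 0.51, SLC1A5 from 0.26 to 0.37, SLC7A11 from 0.17 to 0.56 and SLC7A1 from 0.003 to 0.46. SLC6A9 ran from -0.02 to 0.20, SLC38A1 from -0.13 to 0.23 and SLC38A2 from -0.31 to 0.01. The highest values of SLC7A11 and SLC7A1 were those without the 2 libraries that stood farthest from their replicates.

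Per kb of exon, SLC7A5 had the highest level of the 10 genes in 5 of the 6 groups and SLC3A2 came next in them. This order rests on unions of all annotated exons and could differ with the lengths of the transcripts present. In GemR siSTIM1 with thapsigargin SLC38A2 was highest at 2963 ± 353 normalized counts per kb (SD, n = 3), followed by SLC7A5 at 2669 ± 13.4 and SLC3A2 at 2090.4 ± 190.5. The highest and lowest of the 10 genes in Par with vehicle were SLC7A5 at 7718 and SLC6A9 at 38.5 per kb. The 10 genes together held 0.552% of the gene-assigned reads in GemR siSTIM1 with thapsigargin and 0.306% with vehicle, 0.873% and 0.718% in GemR siCont, and 0.996% and 0.573% in Par.

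Over the 18 libraries the pattern of SLC7A5 was most like that of SLC3A2 among the 10 genes (Pearson r = 0.972 of log2 values). Outside them it was most like FHL1 (0.986), TPD52L2 (0.968), AFAP1L2 (0.964), RECQL (0.962) and SLC11A2 (0.960). The genes most like SLC3A2 were WDR41 (0.973), GHITM (0.970), ARF1 (0.965), PRKAG1 (0.965) and SYAP1 (0.958). FHL1, a LIM-domain protein, averaged 361 normalized counts in GemR siSTIM1 with vehicle, against 1862 in GemR siCont with vehicle. SLC1A5 and SLC43A1 followed each other (0.990), as did SLC7A1 and SLC38A1 (0.966), whereas SLC7A11 and SLC7A5 did not (-0.11). These r describe the same 6 groups of 3 libraries, which are not independent points, and carry no test.

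Of 40 other amino acid transporter genes, 19 passed the filter. This list and the 2 below were drawn up with earlier results of these libraries known. With thapsigargin 1 was called higher and 4 lower in Par (20.5% and 19.7% of all genes tested), 6 and 3 in GemR siCont (17.9% and 15.8%), and 2 and 5 in GemR siSTIM1 (12.5% and 11.9%). SLC6A6, the taurine transporter, was higher with thapsigargin in GemR siCont (log2 1.60 ± 0.13) and in GemR siSTIM1 (0.67 ± 0.13). SLC1A3, a glutamate transporter, was lower with thapsigargin in GemR siSTIM1 (-0.99 ± 0.10) and in Par (-0.59 ± 0.10). With siSTIM1 against siCont, 5 were higher and 5 lower with thapsigargin (17.7% and 18.9% of all genes), and 5 and 3 with vehicle (20.9% and 21.1%), SLC1A3 at 1.13 ± 0.10 among the higher ones. SLC6A19 (2.45 ± 0.47) and SLC6A17 (2.16 ± 0.20) rose more with vehicle, from low means of 7.8 and 16.4 normalized counts with siCont. GemR siCont against Par had 8 higher and 4 lower with thapsigargin (23.2% and 25.0% of all genes), and 3 and 7 with vehicle (18.1% and 20.1%). In GemR siCont the response exceeded that of Par for 3 and was smaller for none by limma or edgeR (1 at an unadjusted p under 0.05), beside 7.14% and 7.66% of all genes, SLC6A6 with the largest difference at 1.32 ± 0.18. Between the siRNAs none was larger with siSTIM1 by limma or edgeR (2 at an unadjusted p under 0.05) and 1 was smaller, SLC6A6 at -0.93 ± 0.18, beside 1.50% and 2.90% of all genes. Medians over these 19 genes lay between -0.15 and 0.13 in all comparisons.

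Of 27 genes of the PERK, GCN2 and ATF4 branch, all of which passed the filter, 23 were called higher and 1 lower with thapsigargin in Par (20.5% and 19.7% of all genes), 23 and 1 in GemR siCont (17.9% and 15.8%), and 22 and 1 in GemR siSTIM1 (12.5% and 11.9%), with medians of 1.40, 1.03 and 1.33. CHAC1, a glutathione-degrading enzyme, led in each, at 4.41 ± 0.11 in GemR siSTIM1, 4.82 ± 0.11 in GemR siCont and 6.97 ± 0.11 in Par. The stress factors DDIT3 and SESN2 came next to it. With thapsigargin 22 were lower in GemR siCont than in Par (median -1.05, and 25.0% of all genes) and none higher by limma, edgeR or an unadjusted p under 0.05 (23.2%), TRIB3 at -2.34 ± 0.09 and DDIT3 at -1.87 ± 0.12 among them, and with vehicle 6 were higher and 14 lower (18.1% and 20.1%). The response was smaller in GemR siCont than in Par for 17 and larger for none by the same 3 counts (7.66% and 7.14%), with CHAC1 at -2.16 ± 0.16 and DDIT3 at -1.94 ± 0.16. With siSTIM1 against siCont, 10 were higher and 7 lower with thapsigargin (17.7% and 18.9%), TRIB3 at 1.26 ± 0.09 and ATF3 at -1.17 ± 0.16, and 6 and 10 with vehicle (20.9% and 21.1%). The response was larger with siSTIM1 for 9, DDIT3 at 0.97 ± 0.16 and TRIB3 at 0.82 ± 0.12, and smaller for 1, PPP1R15B (1.50% and 2.90%). ATF4 mRNA averaged 8915 ± 788 with thapsigargin and 3676 ± 163 with vehicle in GemR siSTIM1, 8057 ± 238 and 3287 ± 355 in GemR siCont, and 10946 ± 271 and 2626 ± 92.4 in Par (SD, n = 3).

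Of 15 NRF2 target genes, which share the antioxidant response with SLC7A11, 6 were called higher and 4 lower with thapsigargin in Par (20.5% and 19.7% of all genes), 1 and 2 in GemR siCont (17.9% and 15.8%), and 2 and 1 in GemR siSTIM1 (12.5% and 11.9%). TXNRD1, thioredoxin reductase, was higher with thapsigargin in all 3, at 0.40 ± 0.09 in GemR siSTIM1, 0.24 ± 0.09 in GemR siCont and 0.88 ± 0.09 in Par. OSGIN1 (-0.72 ± 0.11) and SRXN1 (-0.45 ± 0.05) were lower with thapsigargin in GemR siCont, and SRXN1 also in GemR siSTIM1 (-0.35 ± 0.05). GemR siCont against Par gave 3 higher and 10 lower with thapsigargin (23.2% and 25.0%), and 4 higher and 8 lower with vehicle (18.1% and 20.1%), HMOX1, haem oxygenase, at -3.14 ± 0.26 and -1.32 ± 0.26. With siSTIM1 against siCont, 5 were higher and 5 lower with thapsigargin (17.7% and 18.9%) and 3 higher and 6 lower with vehicle (20.9% and 21.1%). ABCC3 stood at 1.37 ± 0.08 with thapsigargin and 1.47 ± 0.08 with vehicle, and FTH1 at -0.61 ± 0.10 and -0.91 ± 0.10. The response was smaller in GemR siCont than in Par for 5 and larger for none by limma, edgeR or an unadjusted p under 0.05 (7.66% and 7.14% of all genes). Between the siRNAs none passed with limma or edgeR (1.50% larger and 2.90% smaller of all genes), and 3 had a larger response with siSTIM1 at an unadjusted p under 0.05.

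Because the library kit does not keep strand, reads of a gene and of an overlapping gene on the other strand cannot be told apart. Exons on the opposite strand covered 23.4% of the exon length of SLC1A5 (AC008622.2), 8.97% of SLC7A11 (SLC7A11-AS1), 7.83% of SLC6A9 (CCDC24) and 5.71% of SLC7A5 (AC126696.2). SLC7A11-AS1 averaged at most 79.9 normalized counts in any group, in Par with thapsigargin, where SLC7A11 averaged 13707. The SLC7A5 pseudogenes SLC7A5P1 and SLC7A5P2 reached 50.9 and 27.0 in their highest libraries. CCDC24, by contrast, lay between 102 and 154 in the 4 GemR groups, where SLC6A9 lay between 111 and 457. AC008622.2 and AC126696.2 are not among the genes of the table, so their reads could not be set beside those of SLC1A5 and SLC7A5. The values of SLC6A9, SLC1A5 and SLC7A5 are less certain for these overlaps.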

How the data were processed

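RNA of 18 cell line libraries was measured by mRNA-seq. Per the labels' protocols, RNA was extracted with QIAzol and the libraries came from the TruSeq RNA Library Prep Kit v2, which keeps no strand. Per the submitters' processing notes, STAR 2.6.0c, HTSeq 0.11.1, DESeq2 and hg38 were used. The deposited values are a signal in the sense of counts per gene, each library divided by 1 size factor of the authors, in a table of 26485 genes (5873 at 0 in every library). The authors' deposited comparison tables were not used here. Dividing by the smallest step of each library gave whole reads for 100% of the values (tolerance 0.01), 8922439 to 16519239 reads per library. The step of GemR siSTIM1 vehicle replicate 3 (0.993) was too near 1 to be told from no scaling, so count tests used 17 libraries.

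Samples were grouped by their titles. The main test was limma 3.58.1 with a trend on log2(normalized count + 1) over all 18 libraries (R 4.3.3), for 13096 genes (mean normalized count 10 or more), with Benjamini-Hochberg adjustment over all of them and a threshold of 0.05. Fold changes are on that scale. The 9 comparisons share libraries, so no correlation between them is given. Alternatives were other pseudocounts (0.5 and 5), filters (none and a mean of 50), scalings, limma settings, a replicate block, each library left out, and edgeR 4.0.16 quasi-likelihood on the recovered reads. The scripts were tested on simulated data. Same-numbered libraries correlated at -0.18 to 0.49 (45 values). All 3 numbers exceeded 0.1 in 1 of 15 pairs of groups, GemR siSTIM1 with thapsigargin and GemR siCont with vehicle (0.491, 0.14 and 0.288). No direct comparison set these groups against each other, and the numbers were not taken to pair samples. Both groups do enter the siSTIM1 minus siCont response difference, with the same sign. A deviation shared by their same-numbered libraries would therefore add in that difference and not cancel. In both groups, replicate 1 was the library farthest from its replicates. Lengths are exon unions of GENCODE 29 (GRCh38), promoters are RefSeq. Protein sequences were not compared here. The members, lists and motifs were chosen with earlier results of these data known. The genes named are the 10 members, up to 4 called genes of each list with the largest fold change, and the 5 genes most like SLC7A5 and SLC3A2.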

Additional observations from a re-analysis of the deposited data

Results flagged for a closer look

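The thapsigargin responses of GemR siCont and Par cells differed in size for the genes listed here. Over all genes tested, limma called 7.66% of the responses smaller and 7.14% larger in GemR siCont at an adjusted p of 0.05. The genes may have been chosen for these responses, so the values are a description. The difference of the responses, GemR siCont minus Par on the log2 scale, was -1.43 for SLC7A11, -1.12 for SLC38A2, -0.79 for SLC7A1, -0.59 for SLC6A9, -0.58 for SLC3A2, -0.47 for SLC38A1, -0.45 for SLC1A4 and -0.31 for SLC1A5. SLC7A5 and SLC43A1 both stood at -0.24. Over 24 alternatives the values of SLC6A9, SLC38A1, SLC1A4 and SLC1A5 lay between -0.73 and -0.22.

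Between GemR siSTIM1 and GemR siCont cells the responses are likewise given as a description. Over all genes tested, limma called 1.50% of them larger and 2.90% smaller with siSTIM1 at an adjusted p of 0.05. The difference, siSTIM1 minus siCont, was 0.77 for SLC3A2, 0.68 for SLC1A4 and 0.63 for SLC7A5. The last of these ran from 0.53 to 0.80 over 24 alternatives.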

How the results depend on the processing

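No tested fold change of the 10 genes that passed the threshold in the main test moved to the other side of 0 under any alternative run. Some that did not pass changed sign. Over the 4 tested comparisons and the 2 differences of responses, 1112 of 1190 recomputed fold changes kept their side of the threshold, 31 came to pass it and 47 no longer did. SLC7A5 and SLC3A2 stayed lower with siSTIM1 than with siCont in both treatments under every alternative. For siSTIM1 against siCont with thapsigargin, 4 of the 10 genes were called, 8 without the 2 libraries farthest from their replicates and 4 to 7 with 1 library left out. For GemR siCont minus Par responses, 8 were called, 5 with no filter, 5 after quantile normalization, 5 with limma without trend, and 4 to 9 with 1 library left out. Over all genes tested, 7.66% of these responses were called smaller and 7.14% larger in the main test. For siSTIM1 minus siCont responses, 3 were called, 5 without the 2 libraries and 2 to 4 with 1 left out. Over all genes tested, 1.50% were called larger and 2.90% smaller with siSTIM1 in the main test. The 10 genes may have been chosen on the responses, so nothing is read from their counts for either difference. With the replicate block the 3 counts were 4, 8 and 3, and it changed no count of the 10 genes in any comparison. Counts over all genes moved most for siSTIM1 minus siCont responses, 577 in the main test, 317 with only the compared groups, 346 with edgeR and 323 to 1216 with 1 library left out, the highest without GemR siCont vehicle replicate 3. For GemR siCont minus Par responses they were 1938, 3852 without the 2 libraries and 1529 to 2943 with 1 left out. With only the compared groups they were 2843, 3129 and 3294 for the thapsigargin response of GemR siCont, GemR siCont against Par with vehicle and siSTIM1 against siCont with vehicle, against 4402, 5000 and 5496 in the main test. The causes were not tested. A 95% interval beside a fold change that missed the threshold gives the sizes that 3 libraries per group did not exclude.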
